A study of Mus musculus with 2 samples.

Results

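The genes that release free CoA from acyl-CoA or break CoA down were followed in liver RNA of CD-1 mice, an outbred laboratory strain. They were 7 acyl-CoA thioesterase genes (Acot1, Acot2, Acot3, Acot4, Acot8, Acot12 and Acot13) and 2 Nudix hydrolase genes that act on CoA (Nudt7 and Nudt19), 9 of the 37146 genes in the tables. They were chosen by gene name, each name matched 1 gene identifier, and all 9 passed the filter on low values that left 10533 genes. The Control group received phosphate-buffered saline (PBS), and the nanoparticle (NP) group received titanium dioxide nanoparticles by mouth at 50 mg per kg body weight per day, from a suspension stirred with ultrasound for 30 min. Control and NP livers shared the strain, and sex, age, length of treatment and the number of mice behind a library were not stated in the labels. Each group was 1 RNA-seq library, so no difference below has a replicate check, and every statement compares these 2 libraries and not the treatments. Levels are FPKM, which are fragments scaled to the length of a row and to the mapped total of a library, summed over the rows of a gene. The range after a level is the 95% interval that the files give, which holds the uncertainty within a library and no spread between animals.

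An acyl-CoA thioesterase cuts the thioester bond of an acyl-CoA and frees the fatty acid and CoA, so the balance between thioesterases and acyl-CoA synthetases sets how much fatty acid is held in the activated form. Nudix hydrolases of this kind cut CoA or acyl-CoA at its diphosphate bond, which destroys the CoA rather than freeing it. Liver keeps separate enzymes in cytosol, mitochondria and peroxisomes, and several of the thioesterase genes are known targets of PPAR alpha, the nuclear receptor that responds to fatty acids in fasting.

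The compartment of the peroxisomal members can be read at the end of their coding sequence, because many peroxisomal proteins carry their targeting signal in the last 3 codons. The final 33 coding bases, stop codon included, are shown for 8 members with those 3 codons in capitals. They were read on the coding strand from the GENCODE M21 transcripts (build GRCm38), using the protein-coding transcript there with the highest summed level, and transcript ends can differ between that release and the files.
Acot1: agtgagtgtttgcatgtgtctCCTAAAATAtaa
Acot2: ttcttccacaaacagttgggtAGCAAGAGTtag
Acot3: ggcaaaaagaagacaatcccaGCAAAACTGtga
Acot4: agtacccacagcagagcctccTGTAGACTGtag
Acot8: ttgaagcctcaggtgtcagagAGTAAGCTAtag
Acot12: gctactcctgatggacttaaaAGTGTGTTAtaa
Nudt7: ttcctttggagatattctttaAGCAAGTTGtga
Nudt19: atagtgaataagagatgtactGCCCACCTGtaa
Acot3, Acot4, Acot8, Nudt7 and Nudt19 encode enzymes known from peroxisomes. Acot1 and Acot12 encode cytosolic enzymes, and Acot2 and Acot13 encode enzymes of mitochondria.

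Among the 9 genes, Nudt7 was lower in NP, Acot3 and Nudt19 were higher, and the other 6 lay within 1.5-fold. Acot1 had the highest level in both libraries and Nudt19 the lowest. In Control the order was Acot1, Nudt7, Acot12, Acot13, Acot2, Acot8, Acot4, Acot3 and Nudt19. The intervals of Acot2 and Acot8, of Acot8 and Acot4, and of Acot3 and Nudt19 overlapped, so those neighbours could not be ordered. In NP, Nudt7 kept the second place but its interval overlapped that of Acot12, and Acot3, Acot4, Acot2, Acot8 and Nudt19 formed a run in which each interval overlapped the next.

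**Figure D1:**
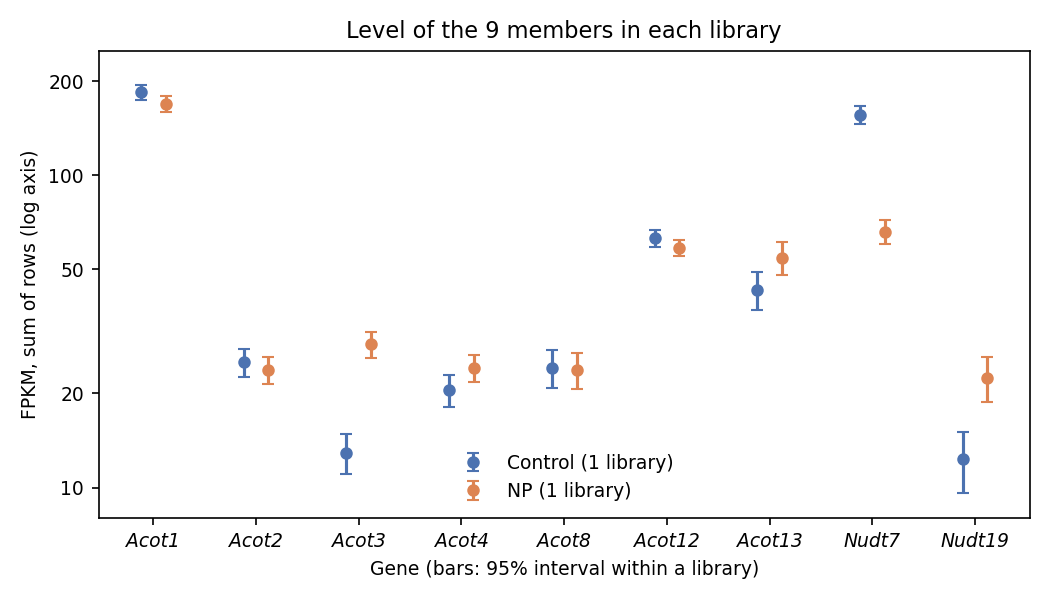
FPKM of each member, summed over its rows, on a log axis, with 1 point per library and bars for the 95% interval within that library. The intervals are apart for Nudt7 (155.9 FPKM in the Control library and 65.9 in NP), Acot3 (12.9 and 28.7) and Nudt19 (12.4 and 22.5) and overlap for the other 6.

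On the scale of log2((NP + 1)/(Control + 1)), which shrinks ratios of low genes, 2 of the 9 members were at least 1.5-fold higher in NP and 1 was at least 1.5-fold lower. Over all 10533 genes, 3.6% were 1.5-fold higher and 5.33% were 1.5-fold lower. At 2-fold, 1 member was higher (Acot3) and 1 lower (Nudt7), where 1.14% and 1.88% of all genes were. Intervals were apart with NP on the higher side for 2 members, against 7.73% of all genes, and on the lower side for 1, against 9.58%. All members had a mean of at least 10 FPKM, and among the 4665 genes at that level 3.11% were 1.5-fold higher and 3.02% lower, while intervals were apart on the higher side for 11.3% and on the lower side for 12.3%. The 1 member of 9 on the lower side is thus near the share of all genes at that level. With 9 genes, these counts are a description and were not tested. The median log2 ratio was -0.02 over the members and -0.03 over all genes.

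**Figure D2:**
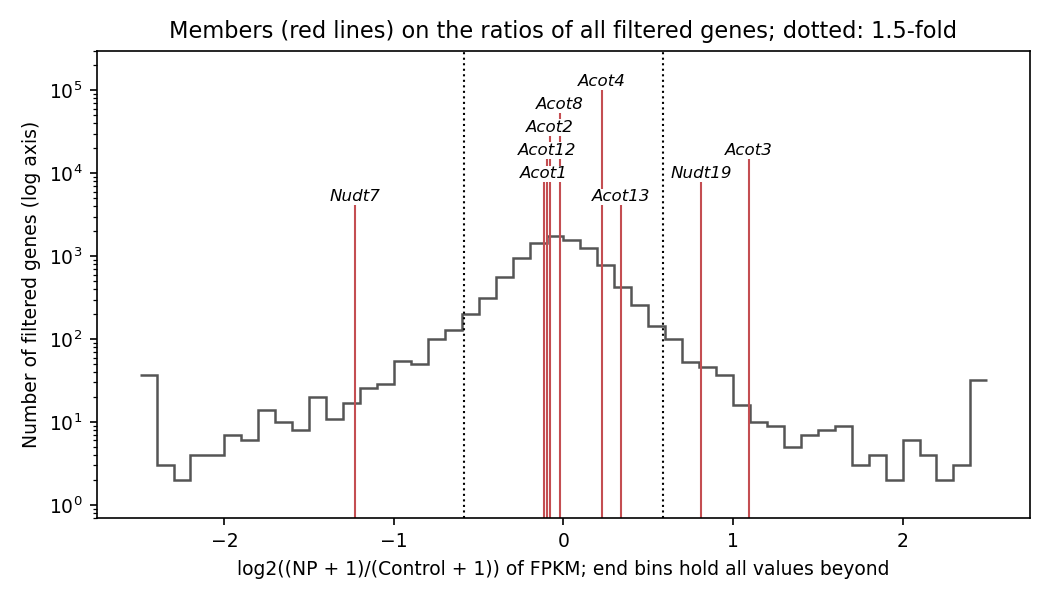
Number of filtered genes (log axis) in bins of the log2 ratio between NP and Control, with a red line at the ratio of each member (the height of a line only places its name) and dotted lines at 1.5-fold. Nudt7 lies at -1.23, Nudt19 at 0.81 and Acot3 at 1.09, and the other 6 members lie between -0.12 and 0.34.

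Nudt7, which encodes the main CoA diphosphatase of liver peroxisomes, was at 155.9 FPKM (145 to 166) in the Control library and 65.9 (60.2 to 71.7) in NP. It was the only member with an NP interval wholly below that of Control, and it was 2.36-fold lower, with a ratio of 0.42 (0.36 to 0.49 at the widest that the intervals allow). The gene (ENSMUSG00000031767.7 in the files) spans chromosome 8 from 116657457 to 116676212 in mm9, the build of the files, and no other gene in the tables overlaps it. Of its 5 transcript rows, only the coding transcript of 1111 nt was above 0 in either library, at 153 and 64.6 FPKM. The row for the whole gene span, which can also take intronic reads, was at 2.90 (2.61 to 3.19) and 1.34 (1.17 to 1.52) FPKM. Both rows were thus lower in NP, to 0.42 and 0.46 of Control. Read coverage, which is not scaled to depth, was 364 in the Control library and 195 in NP when summed over the rows, although NP was the more deeply covered library.

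Nudt19, which encodes the other peroxisomal CoA diphosphatase and is best known from kidney, had the opposite direction in its sum. It was at 12.4 FPKM (9.63 to 15.1) in the Control library and 22.5 (18.7 to 26.2) in NP, a ratio of 1.82 (1.24 to 2.72). The gene (ENSMUSG00000034875.5) lies on chromosome 7 from 36332204 to 36341323 (mm9) with no overlapping gene. Its coding transcript of 2298 nt was at 6.83 FPKM (5.56 to 8.09) in the Control library and 9.15 (7.77 to 10.5) in NP, with intervals that overlapped. A second transcript of 733 nt, annotated in GENCODE M21 as a processed transcript without a coding sequence, was at 5.10 (2.69 to 7.5) and 13.3 (9.86 to 16.8) FPKM, with intervals apart. The gene-span row was at 0.43 FPKM (0.28 to 0.59) for Control and listed at 0 for NP, the reverse of the transcripts. This short, processed transcript held 41.3% of the gene's FPKM in the Control library and 59.3% in NP. On the coding transcript alone the log2 ratio was 0.38 instead of 0.81, which is inside 1.5-fold, so the call for Nudt19 rests on the transcript that is not coding. How fragments are shared between 2 transcripts of 1 gene is an estimate, and its part in the result was not tested.

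Nudt7 and Nudt19 together summed to 168 FPKM (157 to 179) in the Control library and 88.4 (81.5 to 95.3) in NP, a ratio of 0.53. Within a library the level of Nudt7 was 12.6 times that of Nudt19 in Control (9.65 to 17.3 at the widest) and 2.93 times in NP (2.30 to 3.83). These ratios count the processed transcript of Nudt19. On coding transcripts alone, Nudt7 was at 153 and Nudt19 at 6.83 FPKM in the Control library, and at 64.6 and 9.15 in NP, a wider gap in both. The sum followed Nudt7, because Nudt19 was the smaller part in both libraries. Kidney markers (Umod, Slc34a1, Slc12a1 and Kap) were listed at 0 in both libraries, 4 of 4.

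**Figure D3:**
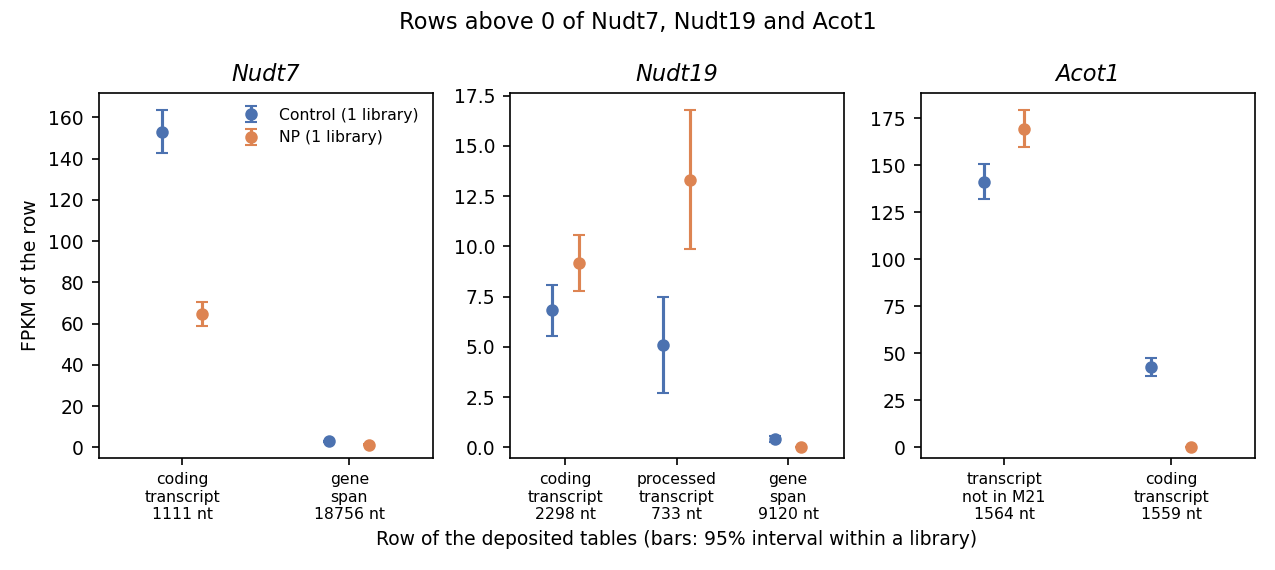
FPKM of each deposited row above 0 in at least 1 library for Nudt7, Nudt19 and Acot1, with bars for the 95% interval within a library and the row's length below it. Both Nudt7 rows are lower in NP, the Nudt19 difference is larger in the processed transcript than in the coding one, and 1 Acot1 transcript is at 42.7 FPKM in the Control library and listed at 0 in NP.

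Of the 7 thioesterase genes, 6 had overlapping intervals and 1, Acot3, was higher in NP. Acot3 encodes a peroxisomal thioesterase of long-chain acyl-CoA. It was at 12.9 FPKM (11.0 to 14.8) in the Control library and 28.7 (25.9 to 31.5) in NP, a ratio of 2.22 (1.75 to 2.86). All of it lay in 1 coding transcript of 1854 nt, while the gene-span row and the other transcripts were listed at 0 in both libraries. Its coverage was 29.7 in the Control library and 84.9 in NP. Acot3 (ENSMUSG00000021228.7) spans chromosome 12 from 85393094 to 85400515 (mm9), and its first 1664 bases overlap 4732463B04Rik. GENCODE M21 holds a gene of that symbol, under another identifier, as antisense. The transcript row of 4732463B04Rik was listed at 0 in both libraries, and its row for the whole span, which also covers part of Acot4, was at 8.67 FPKM (8.04 to 9.31) and 9.21 (8.58 to 9.84), with overlapping intervals. The labels do not state whether reads kept their strand, so reads from the overlap cannot be assigned to one of the 2 genes.

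Acot4, a peroxisomal thioesterase known for succinyl-CoA, lies next to Acot3 at 85379329 to 85385673 and was at 20.5 FPKM (18.2 to 22.9) in the Control library and 24.2 (21.7 to 26.6) in NP. Its intervals overlapped, and it shares 5255 bases of its span with 4732463B04Rik. Within a library Acot4 was 1.59 times Acot3 in Control (1.22 to 2.07) and 0.84 times in NP (0.69 to 1.03), so the order of the neighbours in Control was not found in NP. Acot8, a peroxisomal thioesterase of broad range that also acts on bile acid intermediates, was nearly equal in both libraries, at 24.2 (20.9 to 27.5) and 23.8 (20.6 to 26.9) FPKM. It lies on chromosome 2 from 164618268 to 164630382 and overlaps the end of Snx21, whose whole-span row was at 1.46 and 1.23 FPKM and whose transcript rows were listed at 0. The gene-span row of Acot8 was at 1.38 (1.15 to 1.61) and 0.97 (0.79 to 1.15) FPKM, with intervals that just overlapped.

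Acot1, the cytosolic thioesterase that PPAR alpha is known to induce, was at 184 FPKM (173 to 194) in the Control library and 169 (160 to 179) in NP. Its sum differed little, with a ratio of 0.92 (0.82 to 1.03). Its 2 transcript rows, of 1564 and 1559 nt, did not behave alike. The longer was at 141 FPKM (132 to 150) in the Control library and 169 (160 to 179) in NP, and the shorter at 42.7 (37.8 to 47.7) in the Control library and listed at 0 in NP. An exact 0 of this kind can be a failed estimate, and since the rows start and end within a few bases of each other only their sum was used. Acot1 spans chromosome 12 from 85350448 to 85358621.

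Acot2, the mitochondrial matrix enzyme with a coding sequence close to that of Acot1, was at 25.2 FPKM (22.7 to 27.7) and 23.8 (21.5 to 26.1). It opens the cluster at 85328811 to 85334823. Acot1 was 7.30 times Acot2 in the Control library and 7.12 times in NP, nearly the same within-library ratio. Acot12, a cytosolic enzyme known to hydrolyse acetyl-CoA, was at 62.8 (58.8 to 66.7) and 58.6 (55.0 to 62.2) FPKM and lies on chromosome 13 from 91881117 to 91925753. Its gene-span row was at 1.18 (1.06 to 1.30) and 0.97 (0.87 to 1.07) FPKM. Acot13, also called Them2, a thioesterase of long-chain acyl-CoA on the mitochondrial surface, was at 42.9 (36.9 to 48.8) and 54.4 (47.9 to 61.0) FPKM, with overlapping intervals. It lies on chromosome 13 from 24909817 to 24923386. Acot13 had the highest ratio of the 6 thioesterase genes within 1.5-fold, 1.27 (0.98 to 1.65).

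The 7 thioesterase genes summed to 372 FPKM (359 to 386) in the Control library and 383 (369 to 396) in NP, a ratio of 1.03. The peroxisomal ones (Acot3, Acot4 and Acot8) summed to 57.6 (53.1 to 62.1) and 76.6 (71.8 to 81.5) FPKM and made up 15.5% and 20.02% of the thioesterase sum. The mitochondrial ones (Acot2 and Acot13) summed to 68.1 (61.6 to 74.5) and 78.2 (71.3 to 85.2) FPKM, and the cytosolic ones (Acot1 and Acot12) to 247 (235 to 258) and 228 (218 to 238). The intervals of the peroxisomal sum were apart, and those of the other sums overlapped. Acot3 alone accounted for most of the peroxisomal difference by point values. It was at 12.9 and 28.7 FPKM, against 20.5 and 24.2 for Acot4 and 24.2 and 23.8 for Acot8.

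Acot1 to Acot4 stand in 1 cluster with Acot5 and Acot6, and their similar sequences limit how well reads can be assigned. In the order Acot2, Acot1, Acot4, Acot3, Acot5 and Acot6 they cover 123 kb of chromosome 12. The coding sequences of Acot1 and Acot2 matched at 95.5% of aligned bases and shared an identical run of 273 bases. Those of Acot3 and Acot4 matched at 75.9%, with a longest identical run of 111 bases, and Acot3 and Acot1 matched at 83.9%, with a run of 203. Of all windows of 50 coding bases, 59.0% of those in Acot1 and 45.2% of those in Acot2 occurred unchanged in another gene of the cluster, against 20.5% in Acot3 and 20.5% in Acot4. For windows of 100 bases the shares were 41.0%, 28.4%, 12% and 1.89%. Only coding bases were compared, so the rest of the transcripts, where reads may also tell the genes apart, is not covered by these shares. The most different gapless stretch of 60 coding bases in each pair is shown. The bases that differ, over which reads can tell the genes apart, are in capitals.
Acot1: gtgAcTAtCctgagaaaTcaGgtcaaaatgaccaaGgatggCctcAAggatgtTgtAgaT
Acot2: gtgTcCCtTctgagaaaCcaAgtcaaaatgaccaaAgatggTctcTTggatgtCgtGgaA
Acot3: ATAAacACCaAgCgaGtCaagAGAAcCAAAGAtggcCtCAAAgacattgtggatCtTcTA
Acot4: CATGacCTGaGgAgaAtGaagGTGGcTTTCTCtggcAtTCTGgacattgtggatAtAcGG
The Acot1 and Acot2 stretches differ at 13 of 60 bases and those of Acot3 and Acot4 at 30, and they begin at coding bases 823, 946, 829 and 829 counted from the start codon.

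Summed over the pair, Acot1 and Acot2 were at 209 FPKM (198 to 220) in the Control library and 193 (183 to 203) in NP. Acot3 and Acot4 summed to 33.4 (30.4 to 36.5) and 52.9 (49.2 to 56.6), a ratio of 1.58, with intervals apart. Acot3 shared the most windows of 50 bases with Acot5 (15.4%) and of 100 bases with Acot1 (8.91%). The sum with Acot4 therefore cannot show whether reads were shared between Acot3 and Acot1. The Acot5 coding sequence compared was a short one, with 947 windows of 50 bases against 1217 in Acot3. Acot1 was compared by its shorter transcript, the one listed at 0 in NP, since the longer was not in GENCODE M21. Acot5 was near the floor at 0.45 FPKM (0.03 to 0.87) and 0.39 (0.01 to 0.76), and Acot6 was at 0.92 (0.56 to 1.28) and 1.29 (0.90 to 1.69). All 6 cluster genes summed to 244 (233 to 255) and 248 (237 to 258) FPKM, a ratio of 1.02. That total is carried by Acot1. Its intervals overlapped. How reads matching several genes were handled is not given in the sources used here, and its part in the Acot3 result was not tested.

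**Figure D4:**
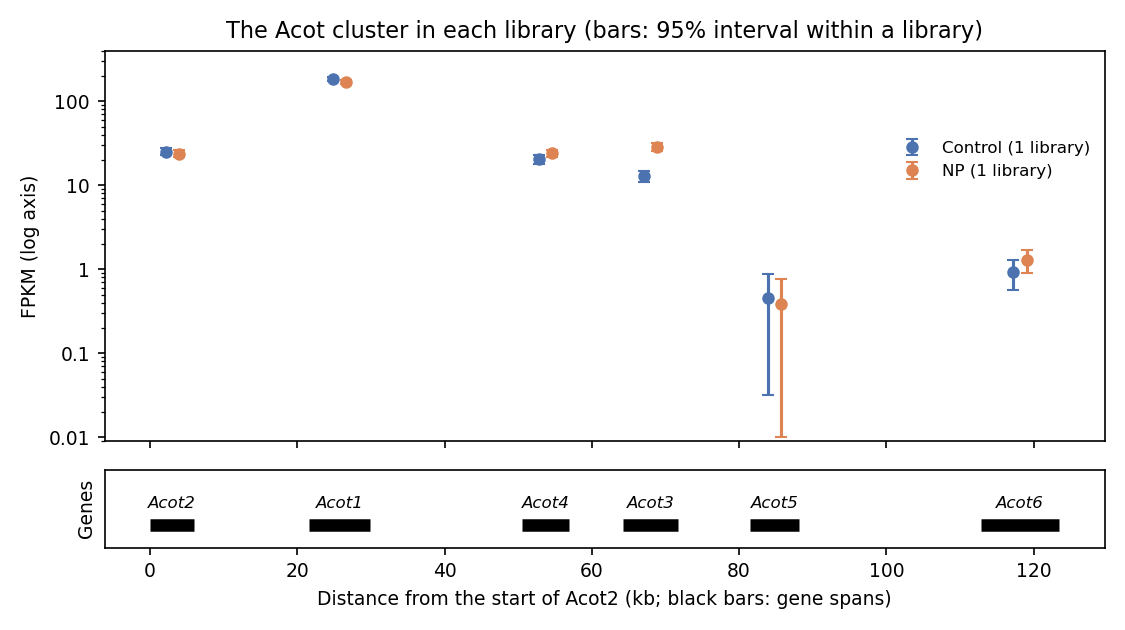
FPKM (log axis) of the 6 cluster genes in each library against distance in kb from the start of Acot2, with bars for the 95% interval within a library and the gene spans drawn below. Acot3 is the only gene of the 6 whose intervals are apart, while Acot1, at 184 and 169 FPKM, is the most abundant and Acot5 the least.

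Promoters are shown for the 3 members past 1.5-fold. They run from 250 bases before to 50 bases after the annotated start, in the direction of the gene, and were taken from RefSeq (build GRCm38.p6). Of the 9 members, 8 had an entry, and Acot13 had none. Where a gene had 2 entries (Nudt7 and Acot3), the entry nearest to the start of the transcript used above is shown. Searched on both strands were AGGTCA, the half-site of nuclear receptors such as PPAR alpha, the DR1 element (2 such half-sites with 1 base between them), the E-box CACGTG, which clock factors bind, the TATA box (TATAAA), the CCAAT box (its letters are its name) and the GC box (GGGCGG). A DR1 element would also count as half-sites, and the other motifs were counted independently. Matches are in capitals.
Nudt7 (chr8:114133324-114133623, plus strand): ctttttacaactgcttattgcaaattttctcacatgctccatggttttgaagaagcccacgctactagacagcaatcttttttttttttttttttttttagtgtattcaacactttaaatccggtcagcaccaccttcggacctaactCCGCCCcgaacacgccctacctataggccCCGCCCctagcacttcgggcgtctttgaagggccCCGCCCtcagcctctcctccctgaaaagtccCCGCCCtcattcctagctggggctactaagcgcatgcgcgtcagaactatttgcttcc
Nudt19 (chr7:35555879-35556178, minus strand): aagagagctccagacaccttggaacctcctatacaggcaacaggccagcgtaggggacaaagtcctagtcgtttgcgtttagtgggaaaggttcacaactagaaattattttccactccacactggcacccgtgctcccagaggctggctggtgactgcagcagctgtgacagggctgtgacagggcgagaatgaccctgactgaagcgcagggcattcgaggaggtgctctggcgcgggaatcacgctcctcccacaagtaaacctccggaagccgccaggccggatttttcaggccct
Acot3 (chr12:84051894-84052193, plus strand): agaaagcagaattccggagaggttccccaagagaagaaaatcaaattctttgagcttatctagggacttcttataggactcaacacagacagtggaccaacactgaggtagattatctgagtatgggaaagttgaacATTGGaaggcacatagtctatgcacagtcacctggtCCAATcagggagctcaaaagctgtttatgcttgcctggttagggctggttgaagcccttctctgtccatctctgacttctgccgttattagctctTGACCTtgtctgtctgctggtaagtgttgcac
The half-site was found in 3 of 8 member promoters (Acot3, Acot4 and Acot12) and in 16.3% of the 32851 promoters of the same length. The DR1 element, searched as exact letters, was found in 0 of 8 and in 0.0396% of all. At so low a share, 0 of 8 says nothing about the members. Nudt7 held 4 GC boxes, a motif found in 4 of 8 members and 35.7% of all promoters, and Nudt19 held none of the motifs. Acot3 held CCAAT at 2 places, a motif in 5 of 8 members and 37.4% of all. The E-box and TATA box were found in Acot4 only, and in 7.15% and 13.6% of all promoters. A match describes exact letters in this window, and no match says nothing of inexact copies or of sites elsewhere.

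Related gene lists are set beside all filtered genes, of which 91.1% lay within 1.5-fold. Of 13 other acyl-CoA thioesterases and related hydrolases, 8 passed the filter and 0 were past 1.5-fold in either direction (median log2 ratio 0.01). Baat, which joins bile acids to taurine and glycine, was the most abundant at 131 and 127 FPKM. Of 19 other Nudix hydrolases, 16 passed the filter, with 0 higher, 1 lower and a median of 0.07. The one that was lower was Nudt9, an ADP-ribose hydrolase, at 24.1 (20.6 to 27.6) and 15.1 (13.0 to 17.3) FPKM, and the most abundant was Nudt4, an inositol phosphate hydrolase, at 48.7 and 49.9 FPKM. Among these genes Nudt8, which encodes the mitochondrial counterpart of Nudt7, was at 18.1 and 22.3 FPKM.

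Of 15 genes of CoA synthesis, turnover and transport, 13 passed the filter, with 1 higher, 0 lower and a median of -0.05. Vnn1, the pantetheinase that splits pantetheine from CoA breakdown, was at 18.7 FPKM (16.6 to 20.7) in the Control library and 37.7 (34.8 to 40.6) in NP, a ratio of 2.02. Pank1, the main pantothenate kinase of liver and the first step of CoA synthesis, was at 125 (118 to 132) and 108 (103 to 114) FPKM, with intervals apart but well inside 1.5-fold. Of 19 acyl-CoA synthetases, which run opposite to the thioesterases, 14 passed the filter, 0 were past 1.5-fold and the median was -0.01. Slc27a2, a very long-chain synthetase, was the most abundant at 798 and 801 FPKM.

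All 21 peroxisomal oxidation genes passed the filter, with 1 higher, 0 lower and a median of 0.02. Abcd2, a peroxisomal transporter of very long-chain acyl-CoA, was at 2.06 FPKM (1.23 to 2.90) in the Control library and 8.54 (6.97 to 10.1) in NP, a ratio of 4.14. Acaa1b, a peroxisomal thiolase, was the most abundant at 1685 and 1743 FPKM. Of 20 genes in the list of PPAR alpha and its other classic targets, 3 were higher and 0 lower, with a median of 0.07, and 2 were higher with a pseudocount of 5 FPKM. The genes past 1.5-fold were Fgf21, a hormone secreted in fasting (21.5 and 58.2 FPKM), Cyp4a14, a fatty acid hydroxylase (1209 and 2244 FPKM) and Pdk4, which inhibits pyruvate oxidation (7.92 and 13.7 FPKM). Fabp1, the liver fatty acid binding protein, was the most abundant at 10384 and 11179 FPKM, and Ppara itself was at 51.7 and 51.1 FPKM. By intervals, 5 of the 20 were apart on the higher side and 2 on the lower side. Those higher were Fgf21, Cyp4a14, Pdk4, Cyp4a10 (1440 and 1854 FPKM) and Angptl4 (90.1 and 121 FPKM). Those lower were Cyp4a32, a fatty acid hydroxylase (222 and 156 FPKM), and Hadhb, a subunit of the mitochondrial trifunctional protein (65.0 and 50.1 FPKM). Over all filtered genes the shares were 7.73% higher and 9.58% lower, and at a mean of at least 10 FPKM 11.3% and 12.3%. The peroxisomal list had 6 of 21 higher and 2 lower by intervals, and the CoA list 2 and 3 of 13. The counts were 1 and 2 of 14 synthetases, 0 and 1 of 16 other Nudix genes, and 0 and 0 of 8 other thioesterases. By their sums, Acot1 had a ratio of 0.92 between NP and Control and its cluster neighbour Acot3 a ratio of 2.22. A part of PPAR alpha in either was not tested.

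**Figure D5:**
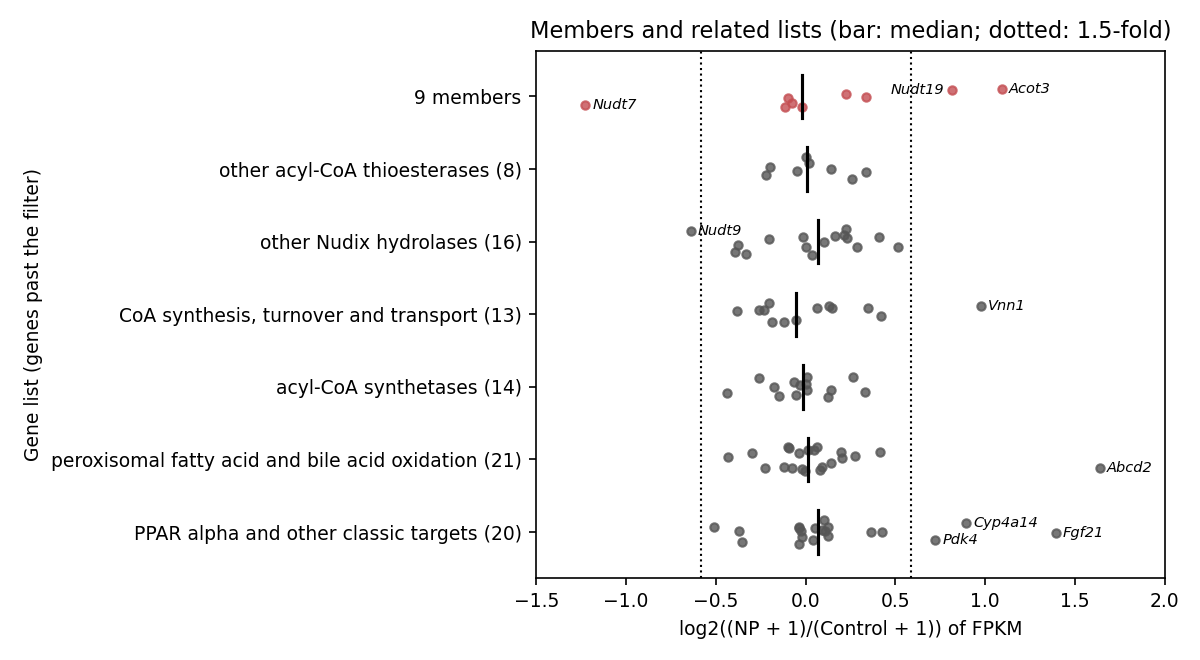
log2 ratio between NP and Control for the 9 members (red) and for the genes of each related list that passed the filter (grey, number in brackets), with a bar at the list median and dotted lines at 1.5-fold. The list medians lie between -0.05 and 0.07, and names are given to the genes past 1.5-fold, led by Abcd2, Fgf21, Acot3 and Vnn1 on the higher side and Nudt7 and Nudt9 on the lower side.

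Markers of liver cell types moved with the libraries and are given as measured. Read coverage per FPKM was 2.29 in the Control library and 2.93 in NP, so NP was covered 1.28 times as deeply. Hepatocyte markers were abundant in both (6 of 6 had a higher value in NP, with a summed level of 36354 and 48251 FPKM, mostly Alb). All 5 endothelial markers had a lower value in NP (sum 68.8 and 49.2 FPKM), as had all 5 Kupffer cell markers (31.2 and 15.9), led by Clec4f at 18.4 and 7.63 FPKM, and all 5 stellate cell markers (87.6 and 71.5). Past the filter were 5 endothelial, 3 Kupffer cell and 3 stellate cell markers. Intervals were apart on the lower side for 2 of them in each list, against 9.58% of all filtered genes. Marco, Adgre1, Col1a1 and Des were below 1 FPKM in both libraries. Of the 6 hepatocyte markers, 4 had intervals apart on the higher side, against 7.73% of all genes. Adipocyte markers summed to 0.02 and 0.13 FPKM, with Lep and Retn at 0 in both libraries, lymphoid markers to 0.69 and 0.83, and cholangiocyte markers to 2.53 and 2.75. In whole liver, fewer cells of a type and less RNA per cell cannot be told apart, and the part of cell makeup in the Nudt7, Nudt19 and Acot3 results was not tested.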

How the data were processed

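Liver RNA of 1 Control and 1 NP library was measured. Per the labels' protocols, RNA was taken with Trizol from frozen liver and libraries were built with an Illumina TruSeq RNA kit from total RNA. The submitters' processing notes name TopHat2 2.1.0, Cufflinks 2.2.1.0 and build mm9, without roles or settings. The deposited tables hold FPKM with a 95% interval for 119289 rows (87656 transcripts and 31633 whole-gene spans), per the file headers. Read coverage, a signal not scaled to depth, is also there, per the file headers. Depth as a count of fragments is not given in the sources used here.

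FPKM was summed by gene identifier, and interval half-widths were combined in quadrature, without the covariance between rows. A row at 0 was given no width. Coordinates are 1-based. The filter asked for a mean of 1 FPKM or more over the libraries, OK status in all rows, 300 nt or more of length and no name of a small RNA. Ratios were log2((NP + 1)/(Control + 1)), with a pseudocount of 1 FPKM, called past 1.5-fold, and 2-fold as a stricter rule. With 1 library per group no test was made. The widest ratio sets the lower bound of one interval against the upper bound of the other. The size rule was tested on simulated data.

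The members and lists were chosen with earlier results of these data known. Named were all members, and of each metabolic list the genes past 1.5-fold and the most abundant gene. Nudt8, Ppara, Cyp4a10, Angptl4, Cyp4a32, Hadhb and the cell type markers given by name were named after their values were seen. Of the listed genes, Acsf3 was matched to no identifier. Coding sequences and biotypes came from GENCODE M21 by transcript identifier and promoters from RefSeq GRCm38.p6, and no coordinate of these was mixed with mm9. The coding end of Acot13 is not reported here. Alternatives covered pseudocount, filter, scaling, rows, summing of similar genes and the call rule. Python 3.11.15, pandas 2.3.3, numpy 2.4.6, matplotlib 3.10.9 and Biopython 1.88 were used.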

Additional observations from a re-analysis of the deposited data

How the results depend on the processing

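With 1 library per group, no replicate could be left out. No paired analysis was possible because each group had 1 library and the labels gave no shared numbers. Of the members' log2 ratios, Nudt7 stayed between -1.24 and -1.18 over its 7 alternatives, and no alternative turned the direction of Nudt7, Acot3 or Nudt19. On the largest row only, Nudt19 was at 1.23 and Acot1 at 0.26. That Nudt19 row was the processed transcript without a coding sequence. On protein-coding transcript rows only, chosen after seeing the data, Nudt19 was at 0.38. This setting kept both Acot1 transcript rows, although the longer was not in GENCODE M21. Without that exception Acot1 would rest on its shorter row, at 42.7 FPKM in the Control library and listed at 0 in NP. Summing Acot3 to Acot6 gave 0.63 for Acot3 and Acot4, and summing Acot1 to Acot6 gave 0.023 for Acot1 and Acot3. These moves follow from which rows or genes were summed. The number of members 1.5-fold higher was 1 at 2-fold and 1 on protein-coding rows only. The number lower was 1 throughout, given that both Acot1 rows were kept in the protein-coding setting. Over all genes, 379 were 1.5-fold higher and 561 lower. These counts were 166 and 215 with a pseudocount of 5 FPKM, 218 and 246 at a mean of at least 5 FPKM, 145 and 141 at a mean of at least 10 FPKM (chosen after seeing the data), 120 and 198 at 2-fold, and 814 and 1009 by intervals that do not overlap. Of 84 list counts under alternatives, 81 were within 1.5 times. The exceptions were 1 other Nudix hydrolase higher with a pseudocount of 0.1 FPKM, 0 lower with a pseudocount of 5 FPKM, and 2 genes of CoA synthesis and turnover higher without the filter. Both scalings moved the median of all genes by 0.03 in log2. The intervals cover the estimate within a library only, so the spread between animals limits every comparison here and was not measured.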
